A study of Mus musculus with 8 samples.

Results

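The kinesin motor genes of C2C12 cells were taken as the genes whose mouse symbol begins with Kif followed by a digit, so that Kifc genes and *Cenpe*, which also encode kinesins, were left out. The rule found 38 of the 27179 genes of the expression table, of which 27 had values high enough to be tested (11406 genes in all), and 25 of the 9153 genes with a called m6A peak. By function, 12 of the 38 were listed as mitotic, 15 as transport and 10 as other kinesins, and the last is the pseudogene *Kif4-ps*. One further symbol of the peak lists matched, *Kif1bp*, an older name of a gene for a kinesin-binding protein, and was not counted as a motor. C2C12 is an immortalized line of mouse myoblasts. GM cells divided in growth medium with 10% serum and were collected at about 50% confluence, and 3d DM cells had spent 3 days in differentiation medium with 2% horse serum, entered at over 90% confluence according to the labels. No group carried a genetic change, and each state had 2 input RNA-seq libraries and 2 libraries immunoprecipitated with an antibody against m6A (MeRIP-seq). Nothing states that replicates came from separate cultures, so the spread between them may be technical.

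Kinesins are motor proteins that use ATP to move along microtubules or to shorten them. Mitotic kinesins build the spindle, move and align chromosomes and form the midzone at which the cell divides, and their genes are transcribed mainly in the late part of the cell cycle. Transport kinesins carry vesicles, mitochondria, mRNA and nuclei, and they remain in use in cells that no longer divide, such as myotubes. m6A is a methyl mark on adenosine within mRNA, placed mainly in the sequence GGAC and its relatives, and its peaks are often found near the end of the coding sequence (CDS).

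The libraries differed in ways that bear on the values below. Expression is given in the units of the deposited table, whose columns have been brought to almost equal sums. The 4 proliferation genes listed (*Mki67*, *Top2a*, *Ccnb1* and *Cdk1*) were all higher in GM, with sums of 11297 (GM replicate 1), 12709 (GM replicate 2), 1224 (3d DM replicate 1) and 2362 (3d DM replicate 2). All 5 muscle genes (*Myog*, *Myh3*, *Mymk*, *Ckm* and *Acta1*) were higher in 3d DM, with sums of 81934 and 119792, against 4517 in GM replicate 1 and 1052 in GM replicate 2. None of the muscle genes was at 0 in GM, and none of the proliferation genes was at 0 in 3d DM. Of 3 markers of undifferentiated reserve cells, *Myf5* was higher in GM and *Pax7* and *Cd34* did not pass the test. In these bulk samples, fewer cells that express a gene and less RNA per cell cannot be told apart. Over all tested genes the median log2 fold change was 0.22 toward GM, and it was -0.01 after the libraries were rescaled by median-of-ratios factors.

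The kinesins listed as mitotic fell together on differentiation. All 11 that were tested were higher in GM (limma, adjusted p from 1.62e-08 to 3.68e-05), with a median log2 fold change (GM minus 3d DM) of 2.75, which is 6.75-fold, and a range of 2.29 to 3.11. After median-of-ratios rescaling all 11 stayed called with a median of 2.52, but the adjusted p was much larger (limma, 0.00187 to 0.0159). The strength of the p-values thus depends on the scaling and the noise model more than the fold changes do. Among all tested genes, 9.96% were called higher in GM, and 17.0% were called in either direction. Both GM values lay above both 3d DM values for each of the 11, as they did for 37.0% of all tested genes. The twelfth, *Kif2b*, was at the table's floor in all 4 libraries. The roles were listed with earlier results of these data known, and the uniform count depends on that listing. *Kif2a*, a depolymerase gene like *Kif2c* but listed among the other kinesins, did not pass (log2 fold change 0.75, limma, adjusted p = 0.281).

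*Kif11* encodes the motor that pushes the spindle poles apart. Its values were 878 and 1054 in GM against 98.2 and 204 in 3d DM (log2 fold change 2.75 ± 0.45 SE, n = 2 libraries per state; limma, adjusted p = 3.84e-08). *Kif15*, which can share that task, had values of 345 and 378 in GM against 59.2 and 89.7 in 3d DM, and its log2 fold change of 2.29 ± 0.48 was the smallest of the 11. The motor that depolymerizes microtubules at kinetochores, *Kif2c*, went from 670 and 826 to 61.6 and 176, and *Kif18a*, which limits the swinging of chromosomes at the metaphase plate, from 172 and 260 to 24.8 and 44.7. The related *Kif18b* had values of 531 and 737 in GM against 51.1 and 129 in 3d DM. In each of these genes the GM libraries were the 2 highest and 3d DM replicate 1 was the lowest.

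The chromosome-bound motors were also called higher in GM. *Kif22*, which helps push chromosome arms outward, was at 688 and 556 in GM against 74.7 and 119 in 3d DM, and was the only one of the 11 with a higher value in GM replicate 1 than in replicate 2. *Kif4*, which takes part in chromosome condensation and in the midzone, was at 623 and 830 in GM against 66.3 and 144 in 3d DM. A pseudogene of it, *Kif4-ps*, was at the floor in every library, but the counting of reads shared between the copies is not known.

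The motors of the midzone and of cell division held the highest level and the largest difference of the group. *Kif20a*, required for the abscission machinery at the midzone, had the highest values of the mitotic members, 1238 and 1587 in GM against 135 and 390 in 3d DM (log2 fold change 2.61 ± 0.44). *Kif23*, the motor subunit of centralspindlin, was at 792 and 1179 against 95.8 and 208, and *Kif20b* at 773 and 889 against 96.8 and 181. *Kif14*, which acts with citron kinase in cytokinesis, had the largest log2 fold change, 3.11 ± 0.51, from values of 290 and 380 in GM against 18.2 and 76.7 in 3d DM. It also had the largest gap between 3d DM replicates, 2.02 on the log2 scale.

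**Figure D1:**
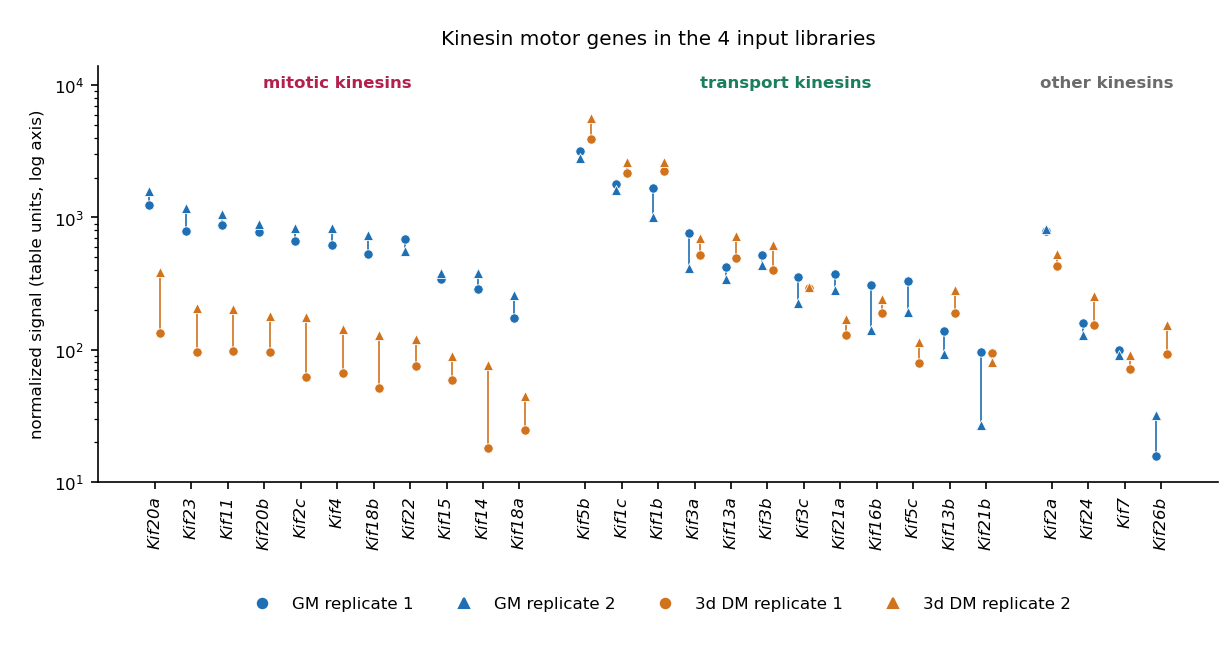
Normalized signal (table units, log axis) of the 27 tested kinesin genes in each input library, by role and ordered by mean value; circles are replicate 1, triangles replicate 2, and a line joins the 2 replicates of a state. The blue GM points of the 11 mitotic genes all lie above the orange 3d DM points, while the states overlap or differ less for most transport genes.

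3d DM replicate 2 was above replicate 1 for all 11 mitotic kinesins, by a median of 1.11 on the log2 scale, where the median of all tested genes was 0.51. The same replicate also had the higher summed proliferation genes given above, and the part of this difference in the kinesin values was not tested. The size of the fall rests on both 3d DM libraries. Without 3d DM replicate 1 the log2 fold changes were 1.84 to 2.36, and none of the 11 reached an adjusted p of 0.05 (limma, 0.052 to 0.0942), although all 11 had an unadjusted p under 0.05. With 1 library left in 3d DM, that library is assumed to vary like the others. Without any other single library all 11 stayed called, and without 3d DM replicate 2 the median log2 fold change was 3.32.

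The GM and 3d DM states differed in which kinesins made up the family's RNA. Mitotic kinesins held 38.7% and 50.0% of the summed signal of all 38 genes in the GM replicates but only 6.37% (replicate 1) and 10.4% (replicate 2) in 3d DM, a difference of 36.0 percentage points (exact permutation test, two-sided, p = 0.33, the smallest that 2 libraries against 2 can give). Counted per kilobase of exon, they held 59.0 ± 6.80% of the family in GM against 14.4 ± 4.30% in 3d DM (SD, n = 2). This scale allows only a rough comparison of different genes. Its length merges all annotated exons of a gene, so genes with many annotated transcripts may be understated. On this per-kilobase scale the order in GM was *Kif5b* (497 ± 42.6), *Kif20a* (362 ± 63.1), *Kif23* (283 ± 78.6), *Kif22* (282 ± 42.2) and *Kif1c* (245 ± 19.5). The SD ranges of the last 3 overlapped, and those of *Kif23* and *Kif22* also overlapped that of *Kif20a*. In 3d DM the order was *Kif5b* (790 ± 204), *Kif1c* (345 ± 46.8) and *Kif1b* (147 ± 17.5), followed by *Kif3a* (84.8 ± 17.4), *Kif3b* (84.7 ± 24.8) and *Kif13a* (84.1 ± 22.6), which did not differ beyond their spread. *Kif20a* was at 67.1 ± 46.2 in 3d DM, a spread between its 2 libraries that overlaps those of *Kif3a*, *Kif3b* and *Kif13a*.

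Because the mitotic members moved together, their promoters were searched for the CHR (cell cycle genes homology region), an element known in genes of the late cell cycle, as TTTGAA or TTCGAA on either strand. RefSeq windows of 250 bases before to 50 after the start site (GRCm38.p6) were at hand for 10 of the 11 tested mitotic kinesins (not for *Kif20a*), 9 of 12 transport kinesins and 4 of 4 others. The CHR letters were present in 9 of the 10 mitotic windows, in 0 of the 9 transport windows and in 2 of the 4 others, against 16.3% of the 8911 tested genes with a window and 21.7% of all 27025 genes with one. Within 40 bases of the start site, a distance chosen after the positions were seen, they were found in 7 of 10 mitotic kinesins and 3.80% of tested genes. At that distance they were also found in 2 of the 4 other kinesins (*Kif24* and *Kif26b*) and in 0 of the 9 transport kinesins. A CCAAT sequence on either strand, the letters bound by NF-Y, was in 6 of the 10 mitotic and 3 of the 9 transport windows, against 43.5% of tested genes. Each match is a stretch of letters and not a shown binding site. The 30 bases around the CHR letters nearest the start site are given for the 9 genes, read along the strand of the gene, with CHR and CCAAT letters in capitals (TTCAAA and ATTGG are TTTGAA and CCAAT on the other strand).
Kif11, chr19:37376351-37376380 (+): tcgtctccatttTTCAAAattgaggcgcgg
Kif15, chr9:122951050-122951079 (+): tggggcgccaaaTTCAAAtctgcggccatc
Kif22, chr7:127042420-127042449 (-): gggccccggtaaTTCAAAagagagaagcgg
Kif23, chr9:61946780-61946809 (-): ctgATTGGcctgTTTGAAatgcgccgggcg
Kif18b, chr11:102925104-102925133 (-): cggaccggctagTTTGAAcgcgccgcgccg
Kif20b, chr19:34922353-34922382 (+): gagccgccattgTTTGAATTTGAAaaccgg
Kif4, chrX:100626072-100626101 (+): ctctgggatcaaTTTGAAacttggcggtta
Kif2c, chr4:117178858-117178887 (-): ccaggctgctctTTCAAAcctgagtaatgc
Kif14, chr1:136467608-136467637 (+): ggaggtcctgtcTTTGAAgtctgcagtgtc

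Counted with the start site as the first base (negative before it), the letters began at -19 in *Kif11*, at -19 in *Kif15* and at -17 in *Kif22*. They began at 3 in *Kif23*, 4 in *Kif18b* and 20 in *Kif4*, and *Kif20b* has the element in tandem, at 8 and 14. In *Kif2c* and *Kif14* they lay further out, at -103 and -228. For these 2 genes the start site used lies inside the annotated gene, whose 5′ end is further upstream, so the distances hold for that start site only. *Kif18a* had neither element in its window. The 120 bases before the start site are shown for 2 mitotic genes, for *Kif26b*, which moved the other way (below), and for the transport gene *Kif3b*, which has a CCAAT sequence and no CHR.
Kif11, chr19:37376262-37376381 (+): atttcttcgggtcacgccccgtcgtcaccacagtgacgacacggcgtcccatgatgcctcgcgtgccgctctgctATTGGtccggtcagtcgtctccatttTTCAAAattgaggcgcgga
Kif22, chr7:127042421-127042540 (-): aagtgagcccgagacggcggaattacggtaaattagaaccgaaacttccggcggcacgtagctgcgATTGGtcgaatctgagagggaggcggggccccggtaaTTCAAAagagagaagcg
Kif26b, chr1:178529005-178529124 (+): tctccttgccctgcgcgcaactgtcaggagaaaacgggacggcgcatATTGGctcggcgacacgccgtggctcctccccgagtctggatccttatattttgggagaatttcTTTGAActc
Kif3b, chr2:153291296-153291415 (+): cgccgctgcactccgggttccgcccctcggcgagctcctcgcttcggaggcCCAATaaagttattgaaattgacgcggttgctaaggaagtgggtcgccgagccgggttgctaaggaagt

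**Figure D2:**
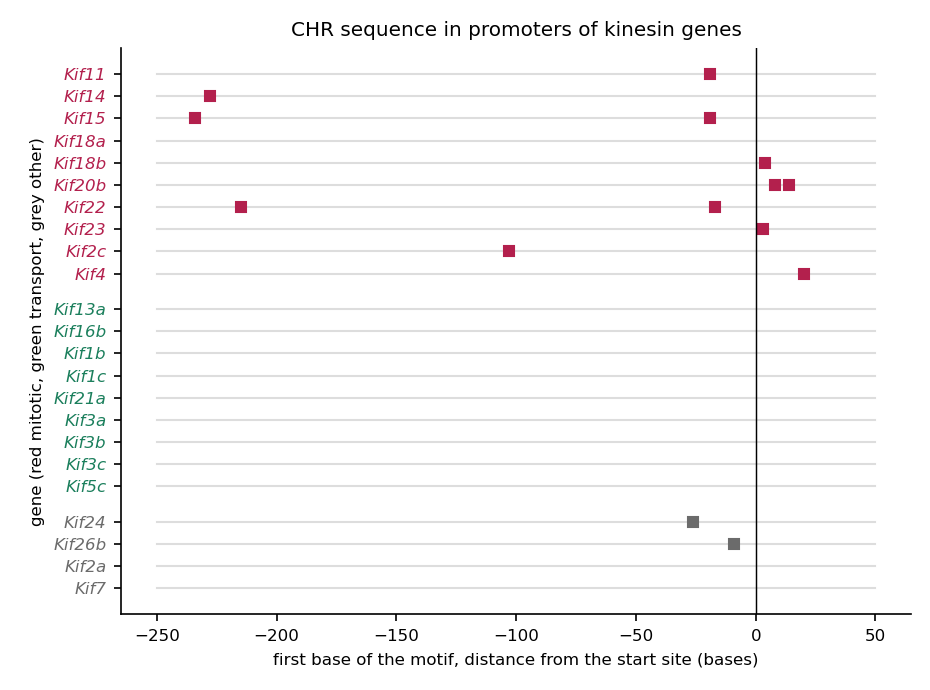
First base of each CHR match relative to the start site (bases, with the start site counted as the first base and no base 0) in the promoters of 23 kinesin genes. There is one grey line per gene from 250 bases before to 50 bases after. Squares cluster around the start site in the red mitotic genes and are missing from all 9 green transport genes; *Kif24* and *Kif26b* of the other kinesins have one each.

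Transport kinesins did not follow. Of 12 tested, 1 was called higher in GM (*Kif5c*), and the number called toward 3d DM was 0 (limma; 2 at an unadjusted p under 0.05), where 7.01% of all tested genes were called higher in 3d DM. Their median log2 fold change was -0.29, against 2.75 for the mitotic list and 0.22 for all tested genes, and 10 of the 12 were below 0. This call depends on the scaling of the libraries. After median-of-ratios rescaling, 5 of the 12 were called higher in 3d DM (*Kif5b*, *Kif1b*, *Kif1c*, *Kif13a* and *Kif13b*, adjusted p from 0.0157 to 0.0337) and *Kif21a* joined *Kif5c* among those higher in GM, while the shares of all tested genes were 12.0% and 11.2%. The 5 are also those whose 3d DM values both lay above both GM values, as in 16.8% of all tested genes.

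*Kif5b*, the ubiquitous kinesin-1 heavy chain that moves mitochondria and positions nuclei in myotubes, had the highest values of the family, 3178 and 2815 in GM against 3894 and 5634 in 3d DM. Its log2 fold change was -0.65 ± 0.41 (adjusted p = 0.329), and -0.88 (adjusted p = 0.0175) after rescaling. The neuron-enriched kinesin-1 gene *Kif5c* differed in the other direction, with 331 and 192 in GM against 79.6 and 115 in 3d DM (log2 fold change 1.39 ± 0.49, adjusted p = 0.0292). The states did not overlap, but without any one of the 4 libraries the call was lost (adjusted p from 0.116 to 0.549). The third heavy chain, *Kif5a*, lay between 11.5 and 16.3 in all libraries and was not tested.

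The kinesin-3 genes carry vesicles and mitochondria. *Kif1b* had values of 1662 and 1005 in GM against 2230 and 2641 in 3d DM (log2 fold change -0.91 ± 0.42, adjusted p = 0.131), and *Kif1c* had 1799 and 1608 against 2164 and 2623 (-0.49 ± 0.42, adjusted p = 0.521). *Kif13a*, which moves endosomes, was at 423 and 342 in GM against 496 and 729 in 3d DM (-0.66 ± 0.45, adjusted p = 0.374). The states did not overlap for any of the 3, but none passed the adjusted threshold (*Kif1b* had an unadjusted p of 0.0296 from limma). *Kif13b* was lower, at 138 and 92.3 against 189 and 281, and *Kif16b* overlapped between the states.

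The subunits of kinesin-2, the motor of the cilium and of membrane traffic, showed no difference that passed the test. *Kif3a* was at 761 and 417 in GM against 521 and 699 in 3d DM (log2 fold change -0.10 ± 0.44), *Kif3b* at 519 and 436 against 404 and 614 (-0.07 ± 0.44), and *Kif3c* at 355 and 224 against 294 and 297 (-0.07 ± 0.46). The states overlapped for all 3 genes, and their signs turned when single libraries were left out. The kinesin-4 gene *Kif21a*, which slows microtubule growth, was at 376 and 285 in GM against 128 and 169 in 3d DM (1.15 ± 0.47, adjusted p = 0.0766). *Kif21b* overlapped, and *Kif1a* and *Kif17* were, with *Kif5a*, the 3 transport genes that did not pass the filter on low values.

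Among the other kinesins, *Kif26b* was higher in 3d DM. Its protein lacks normal motor activity and takes part in signalling and cell adhesion. Its values of 15.6 and 32.1 in GM against 92.7 and 154 in 3d DM gave a log2 fold change of -2.37 ± 0.57 (limma, adjusted p = 0.000391). The call held without GM replicate 2 (adjusted p = 0.0018) but not without GM replicate 1 (0.0669), 3d DM replicate 1 (0.11) or 3d DM replicate 2 (0.137). *Kif2a*, which encodes a microtubule depolymerase, had separate groups with 790 and 819 in GM against 430 and 533 in 3d DM, but its log2 fold change of 0.75 ± 0.44 did not pass (adjusted p = 0.281). *Kif24* and *Kif7*, both linked to the cilium, overlapped. The 6 remaining genes of the list (*Kif6*, *Kif9*, *Kif12*, *Kif19a*, *Kif26a* and *Kif27*) did not exceed 15.7 in any library, and *Kif26a* was listed at the floor in both GM libraries and at 6.80 and 14.3 in 3d DM.

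**Figure D3:**
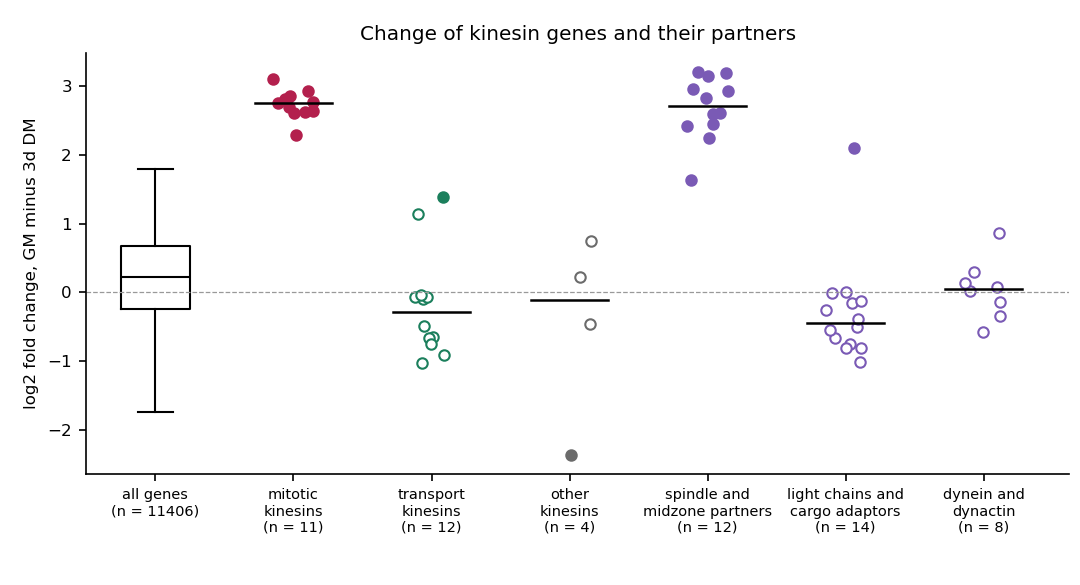
Log2 fold change (GM minus 3d DM) of all 11406 tested genes (box, quartiles and median; whiskers, 5th to 95th percentile) and of single genes by list; filled points have an adjusted p under 0.05, and bars are medians. The mitotic kinesins (median 2.75) and their spindle partners (2.72) lie high, whereas transport kinesins (-0.29), light chains and adaptors (-0.45) and dynein genes (0.05) lie near 0.

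The partners of the motors were read against the shares of all tested genes, 9.96% higher in GM, 7.01% higher in 3d DM and 12.0% higher in 3d DM after rescaling. All 12 spindle and midzone partners were called higher in GM, with a median log2 fold change of 2.72, and the largest were *Aurka* (3.21 ± 0.47), *Plk1* (3.19 ± 0.45) and *Cdca8* (3.15 ± 0.46), which encode mitotic kinases and a subunit of the chromosomal passenger complex. Of 14 tested kinesin light chains and cargo adaptors, 1 was called higher in GM, and toward 3d DM the number called by limma was 0 (2 at an unadjusted p under 0.05), with a median of -0.45. The one called was *Syne2*, which encodes a nuclear envelope protein that links nuclei to motors (577 and 395 in GM, 94.9 and 130 in 3d DM, adjusted p = 0.000114), while its relative *Syne1* was at 507 and 274 in GM against 615 and 926 in 3d DM (-1.02 ± 0.44, adjusted p = 0.103). *Map7d1*, a microtubule protein that recruits kinesin-1, was at -0.81 ± 0.41. After rescaling, 6 of the 14 passed as higher in 3d DM, among them *Klc1* and *Klc2*, light chains of kinesin-1. None of 8 genes of cytoplasmic dynein and dynactin, which move the opposite way on microtubules, was called (limma; 0 at an unadjusted p under 0.05), with a median of 0.05, and 1 of them, *Dync1li2*, passed as higher in 3d DM after rescaling. With lists of this size, 0 of 14 and 0 of 8 toward 3d DM are near the share of all tested genes.

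m6A peaks were compared next, from the 4 lists of peaks called in each immunoprecipitated library against its own input. Every one of the 11 tested mitotic kinesins had a peak in at least 1 list, 10 of 12 transport kinesins did (not *Kif5c* and *Kif21b*), and so did 4 of 4 other kinesins, against 76.2% of the 11253 tested genes with a symbol. The number of mitotic kinesins with a peak was 11 and 10 in the GM lists but 8 (replicate 1) and 3 (replicate 2) in those of 3d DM (exact permutation test, two-sided, p = 0.33, the smallest possible), whereas the same 10 transport genes had a peak in every list. The shares of all tested genes with a symbol that had a peak were 63.8% and 60.4% in the GM lists. In those of 3d DM they were 62.8% (replicate 1) and 53.5% (replicate 2). Of all 9153 genes with a peak, 54.5% were in all 4 lists, compared with 3 of 11 mitotic and 10 of 10 transport kinesins.

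*Kif2c* and *Kif23* had peaks in both GM lists and in neither 3d DM list, a pattern found on 3.56% of all genes with a peak. The 2 regions of *Kif2c* had folds over input of 3.17 and 2.64 near the end of the CDS and of 2.73 and 2.74 further upstream (GM replicates 1 and 2). *Kif18a* had a peak in GM replicate 1 alone. *Kif4*, *Kif11*, *Kif14*, *Kif15* and *Kif22* had a peak in both GM lists and in 3d DM replicate 1 and none in 3d DM replicate 2. The share of all genes with that pattern was not counted, and the list of 3d DM replicate 2 had the fewest genes with a peak (below). The opposite pattern, both 3d DM lists and no GM list, held for 2.31% of all genes with a peak and for 1 kinesin, *Kif26b*, whose 3′ UTR region had folds of 16.9 and 10.0 and whose RNA was also higher in 3d DM.

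Input values of the mitotic kinesins with and without a peak overlapped in both 3d DM libraries. In 3d DM replicate 2 the 8 mitotic genes without a peak had input values of 44.7 to 208, and the 3 with a peak had 129 to 390. In 3d DM replicate 1 the ranges were 24.8 to 95.8 for the 3 without and 18.2 to 135 for the 8 with a peak. Over all tested genes with a symbol, a peak was called in 3d DM replicate 1 on 49.7% of those below the median value of 214 and on 75.9% of those above it. In 3d DM replicate 2 the shares were 33.5% below the median of 306 and 73.5% above it, and 11 (replicate 1) and 10 (replicate 2) of the 11 mitotic kinesins lay below these medians. The list of 3d DM replicate 2 also had the fewest genes with a peak, 6294 against 7164 to 7574 in the others. Without it, mean numbers of kinesin genes with a peak differed by 1.0 between GM and 3d DM, and with it by 5.0. A loss of the mark and a loss of RNA to call it on cannot be told apart from these lists.

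**Figure D4:**
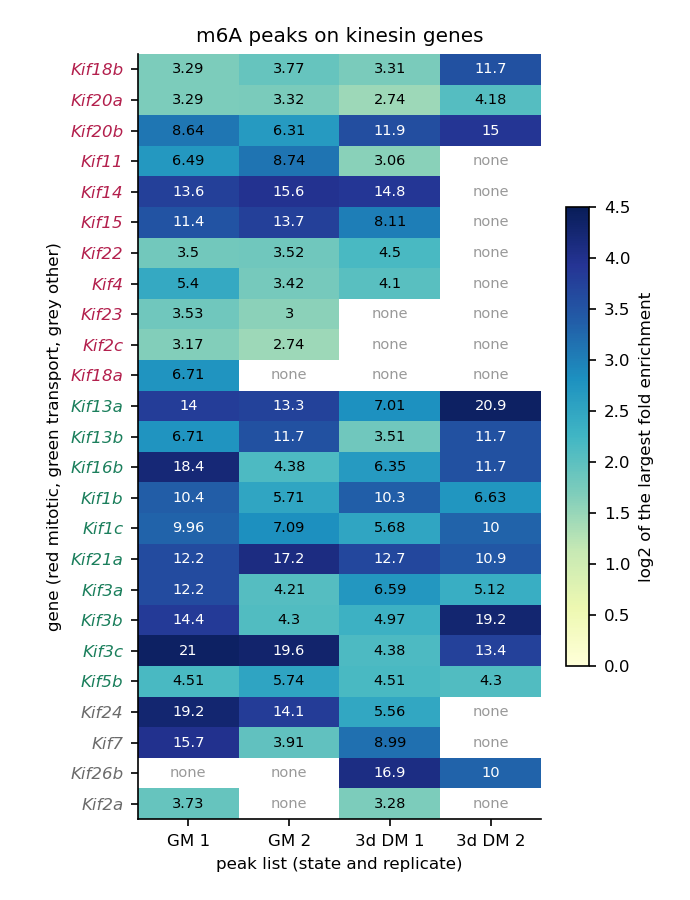
Largest fold enrichment over input of any peak on each of 25 kinesin genes in the 4 lists (colour, log2; numbers, fold), with "none" where no peak was called. The blank cells fall mainly on mitotic genes (red) in 3d DM, while the 10 transport genes (green) have a peak in each list.

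After merging of lines that share exon bases, kinesin genes held 82 of the 19516 peak regions. Of the 34 mitotic regions, 9 were in both GM lists and in no 3d DM list (26.5%, against 3.83% of all regions), and 3 were in all 4 lists (8.82%, against 30.6%). The 9 lie on *Kif2c*, *Kif11*, *Kif14*, *Kif15* and *Kif23* only, and regions of the same gene are not independent. The comparison with all regions was not matched for RNA level. Of the 36 on transport kinesins, 12 were in all 4 lists and none in one state's 2 lists alone, and the 3d DM pattern, which 2.72% of all regions showed, was seen for the *Kif26b* region only. Of the 82 kinesin regions, 13 held a peak across the CDS end (15.9%, against 24.7% of all regions), 8 of them on mitotic and 5 on transport kinesins. Of 78 regions that could be placed on a transcript, 6 had their midpoint within 200 nt of the CDS end (7.69%, against 22.3%), and the midpoint of a long merged region can lie far from a CDS end that it covers. The median midpoint, counted from the CDS end with negative values upstream, was -1058 nt for mitotic and 85 nt for transport kinesins, against -105 nt for all regions. The letters GGAC, read on the RNA strand, occurred 2.99 times per kb in mitotic, 4.70 in transport and 4.99 in all regions, and GGCA, the same bases in another order, 3.59, 4.92 and 4.79 times per kb.

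Coding stretches around a GGAC (in capitals) are shown for the region of *Kif3c* with the largest difference between the states. They are also shown for 2 mitotic genes with peaks in GM only and for *Kif20b*, which had a peak in all lists. The stretch of *Kif14* comes from a region upstream in the CDS, with folds of 13.6 and 10.2 in GM and 14.8 in 3d DM replicate 1. For *Kif26b* 25 bases of the 3′ UTR region are given. All were read from mm10 along the gene's strand.
Kif3c, chr12:3366248-3366368 (+): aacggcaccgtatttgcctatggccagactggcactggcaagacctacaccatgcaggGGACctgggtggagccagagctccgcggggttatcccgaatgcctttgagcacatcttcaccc
Kif2c, chr4:117160262-117160382 (-): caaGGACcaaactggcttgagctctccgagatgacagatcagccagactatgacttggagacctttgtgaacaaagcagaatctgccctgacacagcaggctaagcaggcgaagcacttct
Kif23, chr9:61925530-61925650 (-): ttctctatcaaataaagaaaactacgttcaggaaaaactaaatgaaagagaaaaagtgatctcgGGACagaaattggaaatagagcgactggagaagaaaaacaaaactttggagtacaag
Kif14, chr1:136468637-136468757 (+): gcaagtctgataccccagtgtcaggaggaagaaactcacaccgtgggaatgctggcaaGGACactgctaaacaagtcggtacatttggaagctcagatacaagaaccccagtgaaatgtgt
Kif20b, chr19:34957424-34957544 (+): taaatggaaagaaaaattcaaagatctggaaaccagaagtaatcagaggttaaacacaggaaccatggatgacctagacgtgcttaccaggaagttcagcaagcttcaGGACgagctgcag
Kif26b, chr1:178932449-178932473 (+): aagccccgtgGGACtgagaaagcac

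Fold enrichment itself was compared at the 5976 regions present in all 4 lists, 15 of them on kinesin genes. No region of any gene passed (limma on log2 folds, 0% called; 238 of 5976 at an unadjusted p under 0.05, 1 of them on a kinesin), and the smallest adjusted p of a kinesin region was 0.77. That region covers the 5′ end of the *Kif3c* CDS (chr12:3365884-3366925), where the folds were 21 and 19.6 in GM against 3.39 and 5.57 in 3d DM, a log2 difference of 2.22 ± 0.44. The states did not overlap there, and the RNA of *Kif3c* differed by -0.07 ± 0.46 (above). Peaks over 1042 exon bases were merged into this region, so the largest folds of different lists may lie at different sites. With the median in place of the largest fold of a region's lines, the difference was 1.51. The next region of the same CDS had folds of 6.93 and 6.02 in GM against 4.38 and 13.4 in 3d DM, which overlap.

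The 3 mitotic regions of this set were those of *Kif18b*, *Kif20a* and *Kif20b*. At the *Kif20b* region the largest fold was lower in GM (8.64 and 6.31) than in 3d DM (11.9 and 15). The log2 difference (GM minus 3d DM) was -0.86 ± 0.43, without overlap but with an adjusted p of 0.997 (limma). This region merges peaks over 3621 exon bases, so the largest folds of different lists may lie at different sites. *Kif20a* stayed between 2.74 and 4.18 in all lists. *Kif18b* was at 3.29, 3.77 and 3.31 and at 11.7 in 3d DM replicate 2 alone, a fold that 271 genes of that list carry. Among transport kinesins, *Kif21a* had folds above 10 in every list (12.2 and 17.2 in GM, 12.7 and 10.9 in 3d DM), and the region of *Kif13a* that spans the CDS end had folds of 11.5 and 13.3 against 7.01 and 20.9. The main region of *Kif5b*, the most abundant kinesin mRNA, was enriched evenly, with folds of 4.51 and 3.22 in GM against 4.51 and 4.30 in 3d DM. *Kif1b*, with a log2 difference of -0.10 ± 0.48 at its stronger region, was higher in replicate 1 of both states (10.4 and 5.71 in GM, 10.3 and 6.63 in 3d DM).

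**Figure D5:**
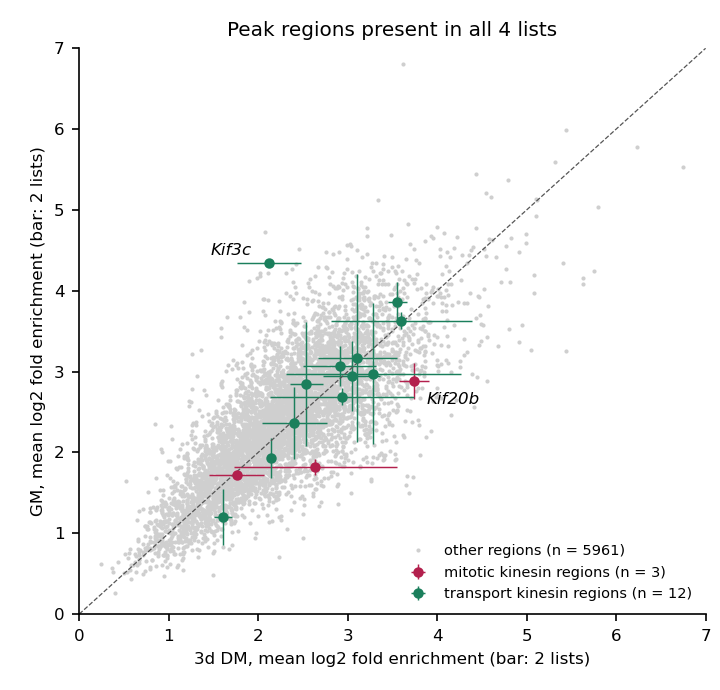
Mean log2 fold enrichment over input in GM (vertical) against 3d DM (horizontal) at the 5976 peak regions present in all 4 lists; coloured points are kinesin regions with bars from the lower to the higher of the 2 lists, grey points all others, and the dashed line marks equal enrichment. The *Kif3c* region lies above the line and *Kif20b* below it, and the bars of most other kinesin regions cross the line.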

How the data were processed

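According to the labels and methods, the authors trimmed adaptors, used HISAT2 (2.1.0) with mm10, and called peaks in each sample against its input with exomePeak. The deposited peak lists give a p-value and a fold, which is a ratio over input. The authors made the deposited table, a normalized signal, with edgeR. It holds no whole counts, depth is unknown, and low values depend on both replicates of a state. Genes reaching 25.1 (2 cpm of a column's sum) in at least 2 of 4 libraries entered limma (3.58.1, R 4.3.3), fitted to log2(value + 1) using a mean-variance trend, with p adjusted by Benjamini-Hochberg (threshold 0.05). Standard errors follow that trend, not a gene's own replicate spread, and fold changes of low genes are understated. Peak lines sharing at least 1 exon bp on a strand formed regions, whose largest log2 fold per list was tested with limma. On simulated data, 186 of 200 genes with a planted fold of 4 were recovered among 193 calls (11406 genes). The simulated noise was independent between genes, without shifts between libraries, and for highly expressed genes was smaller than the fitted standard errors. The simulation therefore checks that the fit runs and does not give the share of such changes recovered in these data. Values per library are given for called genes and the 8 others of highest mean, and up to 3 partners per list of largest fold change are named; *Kif13b*, *Kif21a*, *Klc1* and *Klc2* were added after their values were seen. Members and lists were chosen with earlier results of these data known. Alternative filters, pseudocounts, scalings, a replicate block and left-out libraries were tried. Plots used matplotlib (3.10.9).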

Additional observations from a re-analysis of the deposited data

How the results depend on the processing

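The count of 11 mitotic kinesins higher in GM held under all filters (9 with 2 cpm in every library, where 9 were tested), pseudocounts, scalings, the replicate block and the fit without trend, and was 0 to 11 when 1 library was left out (0 without 3d DM replicate 1). Kinesin genes higher in GM numbered 0 to 11 and those higher in 3d DM 0 to 1 with 1 library left out; the latter were 0 with 2 cpm in every library, 4 without a filter (*Kif26b*, *Kif26a*, *Kif19a* and *Kif17*) and 6 under either rescaling. Transport kinesins higher in GM were 0 with the replicate block or without any one library and 2 under either rescaling; those higher in 3d DM were 1 without a filter and 5 under either rescaling. Of all genes, 1136 were higher in GM, 705 with the replicate block and 44 to 573 with 1 library left out, and 800 were higher in 3d DM, 524 with 2 cpm in 3 libraries, 422 in every library, 1369 and 1360 under the rescalings and with 1 library left out 101 to 679. The cause of these shifts was not tested beyond the smaller samples and gene sets themselves. The labels do not pair same-numbered libraries, whose deviations correlated with r = 0.29 over tested genes. With the block, *Kif5c* lost its call (adjusted p = 0.118) and no other kinesin call changed. No kinesin region was called under any setting, the block included (0 of 15, smallest adjusted p = 0.316). The difference of 5.0 kinesin genes with a peak was 8.5 with peaks of p at most 1e-05, 1.0 with folds of at least 4, 9.0 with at least 2 peaks per gene and 1.0 to 9.0 with 1 list left out. Depth is unknown, so no counting error is given.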

Other observations

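Of 5 kinesin motors whose symbols fall outside the naming rule, 3 were called higher in GM and 1 in 3d DM. The shares of all tested genes were 9.96% and 7.01%. *Cenpe*, a kinetochore motor, was at 1598 and 1612 in GM, against 175 and 296 in 3d DM (log2 fold change 2.81 ± 0.44; limma, adjusted p = 5.88e-09). *Kifc1*, a minus-end motor of the spindle, and its close copy *Kifc5b* were called higher in GM as well (2.55 ± 0.47 and 2.36 ± 0.49), but reads may be split between the copies and both values are uncertain. *Kifc2* was called higher in 3d DM (-2.15 ± 0.68, adjusted p = 0.0121), from values of 28.8 and 2.03 in GM, against 34.7 and 48.9 in 3d DM, and lost that call after median-of-ratios rescaling (-2.37, adjusted p = 0.14). *Kifc3* had values of 171 and 196 in GM against 317 and 572 in 3d DM (-1.21 ± 0.46, adjusted p = 0.0503) and was called higher in 3d DM after that rescaling (-1.44, adjusted p = 0.0118).
*Kif1bp*, the binding-protein gene that the naming rule picks up in the peak lists alone, had a peak region in all 4 lists, with folds of 4.42 and 3.36 in GM against 4.5 and 3.13 in 3d DM.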
